A study of Mus musculus with 12 samples.

Results

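The genes described here encode 6 subunits of voltage-gated sodium channels, the alpha subunits Scn1a, Scn3a and Scn8a and the beta subunits Scn2b, Scn3b and Scn4b. They were found by symbol among the 23282 gene rows of each count table, and each symbol was present in all 12 libraries. The group was chosen from earlier results of these data because Scn4b was among the genes with the largest falls in HD mice after symptom onset. The Scn4b values of that comparison, and of post-symptomatic HD mice against WT mice, are therefore given as a description with no test.

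RNAseq was performed on striatum and cortex of R6/2 mice, called HD mice, and of littermate controls, called WT mice. The R6/2 transgene is a fragment of the human huntingtin gene, holding its first exon with an expanded CAG repeat and its own promoter, so the mutant protein is a fragment made in many tissues and not in the striatum alone. Brains were taken at 8 weeks, labelled pre-symptomatic, or at 13 weeks, labelled post-symptomatic. Each of the 4 HD groups (age by region) had 2 libraries, and each of the 4 WT groups had 1. No treatment was listed besides age, and the background strain, the number of mice behind each library and the pairing of striatum with cortex from the same mouse were not given in the sources used here.

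Voltage-gated sodium channels open when a neuron is depolarized and carry the inward current that starts and propagates action potentials. The alpha subunit forms the pore. The beta subunits are single-pass membrane proteins that tune gating and surface expression of the alpha subunit and also act as cell adhesion molecules. Scn4b is enriched in the projection neurons of the striatum, the neuron type most affected in Huntington's disease.

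Libraries held 8814386 to 12091201 counts. Levels below are counts scaled to library size (CPM) by the TMM method, from reads at the 3′ end of transcripts, so they were not divided by gene length. The labelled regions were checked against marker genes. All 8 striatal projection neuron markers that could be tested were higher in striatum than in cortex, both in HD and in WT libraries. The ninth marker listed, Drd2, was near 0 in every library. Of 5 cortical excitatory neuron markers, 4 were lower in striatum than in cortex in HD libraries and 3 in WT libraries.

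Pre-symptomatic HD striatum replicate 2 stood apart. Its 6 oligodendrocyte markers summed to 19160 CPM, against 2174 to 6785 CPM in the other libraries. Its 3 thalamus markers summed to 749.6 CPM, against 21.1 to 89.7 CPM elsewhere, and its striatal projection neuron markers summed to 2309 CPM, against 7335 CPM in replicate 1. The 5 GABA interneuron markers summed to 782 CPM there and to 535 CPM in replicate 1, and only Pvalb among them was higher (437 and 12.9 CPM), while Sst, Npy, Vip and Lhx6 were lower. The main results that rest on this library are given with and without it. The choroid plexus gene Ttr was high in that library and in post-symptomatic HD cortex replicate 2 (932 and 2964 CPM). In HD mice, Xist was high and the Y-linked gene Ddx3y at or near 0 in every replicate 2, with the reverse in every replicate 1. Both WT libraries of 8 weeks resembled replicate 1 in this respect and both of 13 weeks resembled replicate 2, so age and sex cannot be told apart in WT mice.

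The first question was which subunits changed in HD mice after symptom onset. In a fit of the 8 HD libraries that allowed for region, 2 of the 5 members other than Scn4b passed the test, and both fell. This comparison called 6.45% of 13944 genes. Scn2b fell by 1.14 on the log2 scale (SE 0.14, edgeR adjusted p = 0.0036) and Scn8a fell by 0.71 (SE 0.15, edgeR adjusted p = 0.026). Scn1a, Scn3a and Scn3b did not pass the test, with log2 fold changes of -0.39, 0.48 and 0.19. Scn4b had a log2 fold change of -3.12 (SE 0.35), the third largest fall among the 602 genes that fell with a mean of at least 5 CPM.

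**Figure D1:**
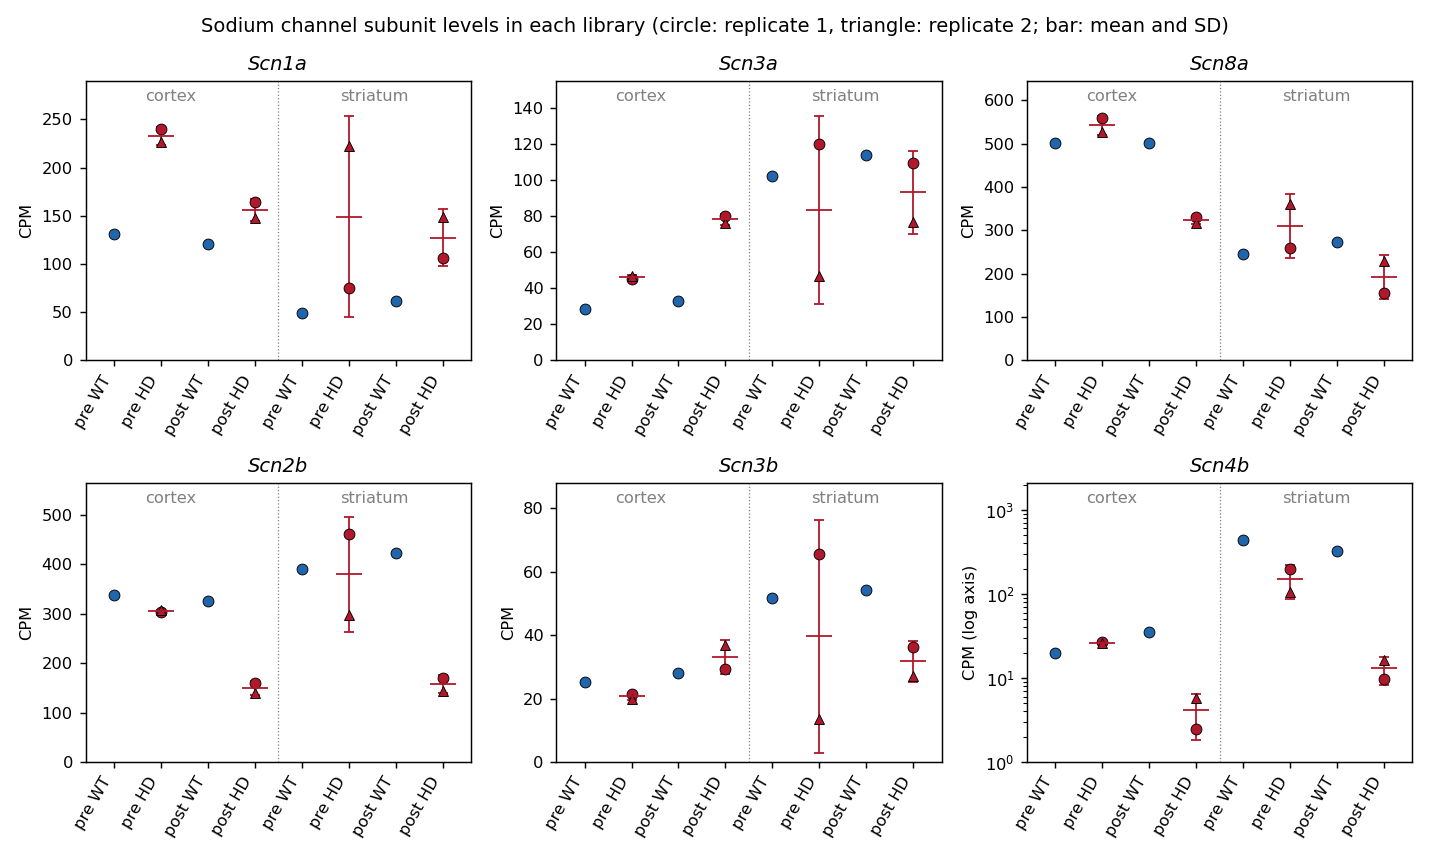
Level of each subunit gene in CPM (y axis; log axis for Scn4b) in the 12 libraries by group (x axis), with cortex on the left and striatum on the right of each panel. Blue points are single WT libraries, red circles and triangles are HD replicates 1 and 2, and bars show the HD mean and SD (n = 2). Post-symptomatic HD libraries lie below every other library of their region for Scn2b, Scn8a and Scn4b, and the share of all genes with this pattern is not given here. The pre-symptomatic HD striatum pair is wide apart for Scn1a, Scn3a and Scn3b.

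Among the beta subunits, Scn4b had the widest range. In striatum it was at 435 CPM in pre-symptomatic WT mice and 320.1 CPM in post-symptomatic WT mice. Pre-symptomatic HD striatum had 198 and 106 CPM, and post-symptomatic HD striatum had 9.60 and 16.4 CPM. The groups did not overlap, and the order ran from WT through pre-symptomatic HD to post-symptomatic HD. Since the genes were chosen because of the fall of Scn4b, this order is a description, and the share of all genes with it is not given here. In cortex, WT libraries had 19.8 CPM at 8 weeks and 35.5 CPM at 13 weeks. Pre-symptomatic HD cortex had 26.6 and 25.7 CPM, between these, and post-symptomatic HD cortex had 2.49 and 5.83 CPM. The lowest level rested on 29 reads (exact 95% Poisson interval 19.4 to 41.7 reads, counting error only), and the highest on 4330 reads. Mean levels after symptom onset were 13.0 ± 4.78 CPM in HD striatum and 4.16 ± 2.36 CPM in HD cortex (SD, n = 2). They were 11.7 and 6.28 times lower than before onset (15.3 times in striatum against replicate 1 alone), and 24.7 and 8.53 times lower than the WT library of the same age. The level in post-symptomatic HD striatum was below that of WT cortex at both ages.

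Scn2b encodes the beta subunit that is linked to alpha subunits by a disulfide bond, as is the product of Scn4b. In cortex it was at 337 and 326 CPM in pre- and post-symptomatic WT mice and at 304 and 307 CPM in pre-symptomatic HD mice. Post-symptomatic HD cortex had 159.8 and 139.6 CPM. In striatum, WT mice had 392 and 423 CPM, pre-symptomatic HD mice had 462 and 298 CPM, and post-symptomatic HD mice had 169.9 and 145 CPM. All 4 post-symptomatic HD libraries were thus lower than all 8 others, though the share of all genes with this pattern is not given here. The fall after onset passed the test under all 14 alternatives, with log2 fold changes from -1.23 to -0.98 and adjusted p from 1.7e-09 to 0.026. Without pre-symptomatic HD striatum replicate 2 it was -1.23 (SE 0.13, edgeR adjusted p = 0.00012), and the log2 fold change of Scn4b was -3.25 (SE 0.38).

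Scn2b and Scn4b are neighbours. In GENCODE M21 on GRCm38, the build named mm10 in the submitters' processing notes, Scn2b spans chr9:45117782-45130070 and Scn4b spans chr9:45138395-45154152, both on the plus strand and 8.3 kb apart. A lincRNA, Gm10684, overlaps Scn2b on the opposite strand, and the strand used for counting is not given in the sources used here. The promoter windows of this pair are shown because the genes lie side by side and both had their lowest levels in post-symptomatic HD mice, while the windows differ in CpG content. Each runs from 250 bases before to 50 after the RefSeq start (GRCm38.p6), 5′ to 3′ on the plus strand, at chr9:45117626-45117925 for Scn2b and chr9:45138374-45138673 for Scn4b, with CpG dinucleotides in capitals.
Scn2b: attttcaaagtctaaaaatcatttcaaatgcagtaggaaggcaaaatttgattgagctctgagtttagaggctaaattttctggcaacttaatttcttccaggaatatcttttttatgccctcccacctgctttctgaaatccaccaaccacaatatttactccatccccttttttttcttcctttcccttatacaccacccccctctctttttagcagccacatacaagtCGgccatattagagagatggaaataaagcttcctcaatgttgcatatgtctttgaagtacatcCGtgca
Scn4b: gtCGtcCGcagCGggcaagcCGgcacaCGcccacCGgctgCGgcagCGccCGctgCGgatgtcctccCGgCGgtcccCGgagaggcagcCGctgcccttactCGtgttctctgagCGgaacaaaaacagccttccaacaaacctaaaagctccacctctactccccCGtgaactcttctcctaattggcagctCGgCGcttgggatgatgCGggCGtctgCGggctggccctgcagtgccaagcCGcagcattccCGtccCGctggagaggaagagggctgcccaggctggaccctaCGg
The Scn2b window holds 2 CpG dinucleotides and 38.3% G or C. The Scn4b window holds 26 CpG dinucleotides and 66.3% G or C. Over 32851 RefSeq mouse promoter windows of this length the median was 7 CpG dinucleotides, and 14.1% of windows held fewer than Scn2b while 83.1% held fewer than Scn4b. The GENCODE starts fall inside both windows, so part of the Scn2b window and most of the Scn4b window lie within the GENCODE gene spans. RefSeq windows were also found for Scn1a and Scn8a, so 4 of 6 members matched. Scn1a had 5 CpG dinucleotides and 47.3% G or C. The windows of Scn8a, which was also lowest in post-symptomatic HD mice in each region, had 38 and 12 CpG dinucleotides and 70% and 53.3% G or C. Scn3a and Scn3b had no entry.

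Scn3b encodes a beta subunit that associates with the alpha subunit without a covalent bond. In cortex it was at 25.2 and 28.0 CPM in WT mice, 21.4 and 19.9 CPM in pre-symptomatic HD mice, and 29.2 and 36.8 CPM in post-symptomatic HD mice. In striatum it was at 51.6 and 54.1 CPM in WT mice. Pre-symptomatic HD striatum had 65.6 and 13.6 CPM, and post-symptomatic HD striatum had 36.4 and 27.1 CPM. Both post-symptomatic HD striatum libraries were below WT, but they lay between the pre-symptomatic HD replicates. Scn3b did not pass the test in any of the 10 comparisons with all libraries.

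Among the alpha subunits, Scn8a encodes Nav1.6, the main channel of nodes of Ranvier and of the mature axon initial segment. In cortex it was at 502 and 501 CPM in WT mice and 558 and 526 CPM in pre-symptomatic HD mice. Post-symptomatic HD cortex had 330.3 and 317 CPM, the lowest in that region. In striatum, WT mice had 246 and 273 CPM, pre-symptomatic HD mice had 258 and 362 CPM, and post-symptomatic HD mice had 156 and 228 CPM. The post-symptomatic HD libraries were thus the lowest of each region, though the share of all genes with this pattern is not given here. The fall over both regions kept its direction under all 14 alternatives and passed the threshold under 9 of them, with adjusted p from 0.00022 to 0.11. It did not pass when any 1 of the 4 HD cortex libraries or post-symptomatic HD striatum replicate 1 was left out (adjusted p from 0.078 to 0.11). Without pre-symptomatic HD striatum replicate 2, Scn8a fell by 0.61 (SE 0.14, edgeR adjusted p = 0.015).

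Markers of neurons in general moved with Scn2b and Scn8a. Of 6 such markers, 4 fell after symptom onset in HD mice (Rbfox3, Snap25, Syt1 and Tubb3, by 0.72 to 0.84 on the log2 scale), and none rose. Over all genes, 6.45% of 13944 were called. The 6 markers summed to 6499 and 6479 CPM in WT cortex. In HD cortex the sum was 7540 to 7595 CPM before onset, above WT, and 4499 to 4754 CPM after it. In striatum the sum was 3667 and 3622 CPM in WT mice. In HD striatum the sum was 3785 and 4220 CPM before onset and 2713 and 2792 CPM after it. Of the other 2, Nefl had a log2 fold change of -1.10 (SE 0.30, edgeR adjusted p = 0.067), close to that of Scn2b (-1.14), and Map2 was at -0.015. In bulk tissue, fewer cells of a type and less RNA per cell cannot be told apart, and the part of cell composition in these falls was not tested.

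Scn1a encodes Nav1.1, the channel on which fast-spiking GABA interneurons depend. In cortex it was at 131 and 121 CPM in WT mice, 239.6 and 226 CPM in pre-symptomatic HD mice, and 164 and 148 CPM in post-symptomatic HD mice. Every HD cortex library was above both WT libraries, and the post-symptomatic ones were below the pre-symptomatic ones. How many of all genes show this order is not given here. In striatum, WT mice had 48.6 and 61.6 CPM, and post-symptomatic HD mice had 106 and 148 CPM. The pre-symptomatic HD striatum replicates had 74.97 and 222 CPM, the higher value in the library that stood apart. The summed level of 5 GABA interneuron markers was 1145 and 1031 CPM in WT cortex. In HD cortex the sum was 889 and 1010.0 CPM before onset and 313 and 276 CPM after it. Lhx6 alone of these markers was higher after onset in both HD cortex replicates (4.51 and 4.24 CPM before, 7.22 and 5.56 CPM after). In striatum the sum was 506 and 547 CPM in WT mice. In HD striatum the sum was 535 and 782 CPM before onset and 271 and 394 CPM after it. Scn1a and Pvalb were both higher in replicate 2 than in replicate 1 of HD striatum at both ages (Pvalb 12.9 and 437 CPM before onset and 44.6 and 204 CPM after it), whereas Sst, Npy and Lhx6 were lower in replicate 2 at both ages. The part of interneurons in the Scn1a values was not tested.

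Scn3a encodes Nav1.3, the alpha subunit that prevails in the embryonic and neonatal rodent brain and is low in the adult. In WT cortex it was at 28.4 and 33.1 CPM, and in WT striatum at 103 and 114 CPM. HD cortex had 45.2 and 47.0 CPM before onset and 80.3 and 76.1 CPM after it. The WT, pre-symptomatic HD and post-symptomatic HD cortex libraries did not overlap, and they were lowest in WT and highest in post-symptomatic HD mice. The share of all genes with such an order is not given here. Over both regions, Scn3a was not called against WT mice at either age in the main fit or under any alternative. In HD striatum it was at 120.3 and 46.6 CPM before onset and at 109.6 and 77.0 CPM after it, with the low value in the library that stood apart. The other member with higher levels after onset in both HD cortex replicates was Scn3b.

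Within single regions, none of the 5 members other than Scn4b passed the test between post- and pre-symptomatic HD mice. These comparisons called 0.16% of 14392 genes in striatum and 0.591% in cortex. Scn2b came closest, with log2 fold changes of -1.23 (SE 0.21, edgeR adjusted p = 0.071) in striatum and -1.04 (SE 0.21, edgeR adjusted p = 0.076) in cortex. DESeq2 called Scn2b in both regions (adjusted p = 9.5e-05 and 0.0026), as did the fit without a filter and the fit with the replicate number as a block. Its adjusted p over all alternatives lay between 1.9e-07 and 0.32 for striatum and between 1.2e-07 and 0.54 for cortex. Scn4b had log2 fold changes of -3.51 (SE 0.47) in striatum and -2.66 (SE 0.48) in cortex, and of -3.93 (SE 0.38) and -2.63 (SE 0.37) without pre-symptomatic HD striatum replicate 2. The difference between regions was not called for any member, at a background of 0% called of 14392 genes by edgeR, where 519 had an unadjusted p under 0.05. DESeq2 called 17 genes and voom called 0.

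**Figure D2:**
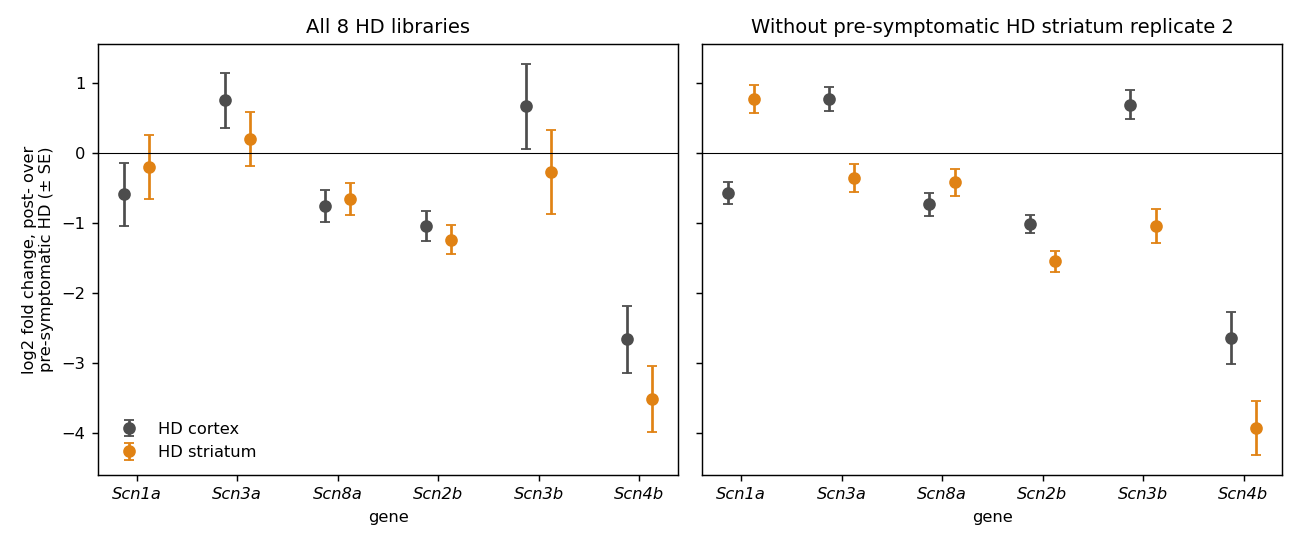
Log2 fold change of each subunit gene (y axis, ± SE) between post- and pre-symptomatic HD mice in cortex (grey) and striatum (orange), with all 8 HD libraries (left) and without pre-symptomatic HD striatum replicate 2 (right). Scn2b, Scn8a and Scn4b lie below 0 in both regions in both panels, while Scn1a in striatum moves from -0.20 to 0.78.

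The values in striatum depended on pre-symptomatic replicate 2, and without it the error of all 6 genes in cortex was also smaller. Leaving it out, with the remaining library assumed to vary like those of the other groups, gave 4 calls of 5 in cortex, where this fit called 7.98% of 15009 genes. Scn2b fell by 1.01, Scn8a by 0.73 and Scn1a by 0.56, and Scn3a rose by 0.78 (edgeR adjusted p = 0.00042, 0.013, 0.042 and 0.012). Over all alternatives, the cortex log2 fold change of Scn3a ran from 0.72 to 0.82 and its adjusted p from 7e-05 to 0.82. That of Scn1a ran from -0.66 to -0.52, with adjusted p from 0.00075 to 0.89, and that of Scn8a from -0.79 to -0.68, with adjusted p from 1.1e-05 to 0.68. In striatum, 3 of 5 were called without replicate 2, where 7.02% of 15009 genes were called. Scn2b fell by 1.54 and Scn3b by 1.04, and Scn1a rose by 0.78 (edgeR adjusted p = 3.4e-05, 0.017 and 0.033). Without replicate 1 instead, all 5 were called, where 7.2% of 15037 genes were, and Scn1a fell by 0.79 and Scn3b rose by 1.24, so the direction of both in striatum was set by which pre-symptomatic library was kept. Scn3a in striatum was at -0.36 without replicate 2, which did not pass the test, and rose by 1.02 without replicate 1. Scn2b and Scn8a kept their sign in both regions under every alternative. The change after onset in striatum less that in cortex was called for 2 of 6 members without replicate 2, where 1.02% of 15009 genes were called. It was 1.34 for Scn1a (SE 0.26, edgeR adjusted p = 0.028) and -1.73 for Scn3b (SE 0.32, edgeR adjusted p = 0.025). Over all alternatives the adjusted p ran from 0.0022 to 1 for Scn1a and from 0.0067 to 1 for Scn3b, and without replicate 1 the values were -0.20 and 0.57.

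The second question was how HD mice differed from WT mice of the same age. Tests against WT mice used all 12 libraries with region as a term and hold no variation between WT mice of 1 age and region. After symptom onset, 1 of the 5 members other than Scn4b passed the test, where 7.36% of 14706 genes were called. Scn2b was lower in HD mice by 1.27 on the log2 scale (log2 fold change -1.27, SE 0.17, edgeR adjusted p = 0.0019), and it was called under all 14 alternatives (adjusted p from 2.3e-09 to 0.0083). Scn8a was at -0.57 (SE 0.17, edgeR adjusted p = 0.064). It passed under 7 of 14 alternatives, DESeq2 and voom among them, with adjusted p from 0.0012 to 0.15. Scn4b had a log2 fold change of -3.90 (SE 0.57). Scn1a, Scn3a and Scn3b had log2 fold changes of 0.71, 0.46 and -0.24, and none was called under any alternative. Of the 6 neuronal markers, 2 were also lower in post-symptomatic HD mice (Rbfox3 and Snap25, log2 fold changes -0.97 and -0.74), and the other 4 were not called, from -0.47 for Tubb3 to 0.18 for Nefl, while Rn45s, a ribosomal RNA locus, took 10.5 to 15.2% of the counts of HD libraries and 4.32 to 5.62% of those of WT libraries.

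Before symptom onset, none of the 6 members passed the test against WT mice, where 2.1% of 14706 genes were called. Scn1a had the largest difference, a log2 fold change of 1.18 (SE 0.39, edgeR adjusted p = 0.20), and DESeq2 called it (adjusted p = 0.033, with 0.033 to 0.35 over all alternatives). Without pre-symptomatic HD striatum replicate 2 it was 0.86 (SE 0.31, edgeR adjusted p = 0.22). In cortex alone, the mean of pre-symptomatic HD mice was 1.78 times that of the WT library. Scn4b was at -0.82 (SE 0.54, edgeR adjusted p = 0.56), from a striatum in which both HD libraries were below WT (log2 ratios -1.13 and -2.04) and a cortex in which both were above WT (0.43 and 0.37). The -2.04 belongs to replicate 2, the library that stood apart. There the median log2 ratio of 8 striatal projection neuron markers to WT was -1.55, against 0.10 in replicate 1. Scn2b differed little, with -0.09 (SE 0.17) and an interval of 2 SE from -0.43 to 0.25.

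When the change from 8 to 13 weeks in WT mice was subtracted from that in HD mice, the difference was not called for any member, at a background of 0.116% of 14706 genes called. Scn2b was at -1.18 (SE 0.24, edgeR adjusted p = 0.12). Without pre-symptomatic HD striatum replicate 2 it was -1.27 (edgeR adjusted p = 0.0075), and over all alternatives the adjusted p ran from 0.002 to 0.29. Scn8a was at -0.79 (SE 0.25) and Scn4b at -3.08 (SE 0.81), the last sharing its libraries with the comparisons by which the genes were chosen.

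The third question was how the regions differed. In WT mice, 3 of 6 members passed the test between striatum and cortex, where 11.1% of 14706 genes were called. Scn4b was higher in striatum by 3.81 (SE 0.53, edgeR adjusted p = 0.0033) and Scn3a by 1.82 (SE 0.39, edgeR adjusted p = 0.016). Scn8a was lower in striatum, at -0.95 (SE 0.20, edgeR adjusted p = 0.011). All 3 were called under all 14 alternatives. Scn1a was at -1.20 (SE 0.42, edgeR adjusted p = 0.10) and was called by DESeq2 (adjusted p = 0.018, with 0.00044 to 0.21 over all alternatives). In these libraries, WT striatum thus held more Scn4b and Scn3a and less Scn8a than WT cortex.

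In HD mice, 2 of 6 members passed the test between regions, where 10.9% of 13944 genes were called. Scn4b was higher in striatum by 2.17 (SE 0.34, edgeR adjusted p = 0.006), and Scn8a was at -0.74 (SE 0.15, edgeR adjusted p = 0.014). Without pre-symptomatic HD striatum replicate 2 these were 2.31 and -0.84 (edgeR adjusted p = 0.0068 and 0.0018). Leaving out pre-symptomatic HD cortex replicate 1 or 2 lost the call of Scn8a (adjusted p = 0.063 and 0.052). Scn3a was at 0.59 (SE 0.27, edgeR adjusted p = 0.21). The ratio of striatum to cortex for Scn3a was 3.61 and 3.44 in WT mice at 8 and 13 weeks, and 1.81 and 1.19 in HD mice at these ages. For Scn4b it was 21.96 and 9.02 in WT mice and 5.82 and 3.12 in HD mice. The HD ratios at 8 weeks include striatum replicate 2, which stood apart. That library had 46.6 CPM of Scn3a and 106 CPM of Scn4b, against 120.3 and 198 CPM in replicate 1. The difference of the regional contrast between HD and WT mice was not called for any member, at a background of 0% called of 14706 genes by edgeR, with 1493 at an unadjusted p under 0.05, 64 called by DESeq2 and 0 by voom. It was -1.26 (SE 0.46, edgeR adjusted p = 0.44) for Scn3a and -1.66 (SE 0.61, edgeR adjusted p = 0.45) for Scn4b. These were -1.09 (SE 0.36) and -1.49 (SE 0.67) without pre-symptomatic HD striatum replicate 2. Without replicate 1 instead, 3 of 6 members were called, where 3.93% of 14652 genes were, with differences of -1.65 for Scn3a, 0.997 for Scn1a and -1.25 for Scn3b.

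The make-up of the subunit counts was described as the share of each gene in the counts of its kind. Shares compare libraries and not genes, because 3′ counts may differ in efficiency between genes, and the Wilson 95% interval of a share reached at most 2 percentage points to either side. Among the 3 beta subunit members, Scn4b made up 49.5% and 40.1% in WT striatum at 8 and 13 weeks. It made up 27.3% and 25.4% in pre-symptomatic HD striatum and 4.45% and 8.71% in post-symptomatic HD striatum. Scn2b made up 44.6% and 53.1% in WT striatum and 78.7% and 76.9% in post-symptomatic HD striatum, although its own level was lower there. Scn3b made up 5.88% and 6.78% in WT striatum and 16.9% and 14.4% in post-symptomatic HD striatum. The total of the 3 genes was 878 and 798 CPM in WT striatum and 216 and 188 CPM in post-symptomatic HD striatum.

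**Figure D3:**
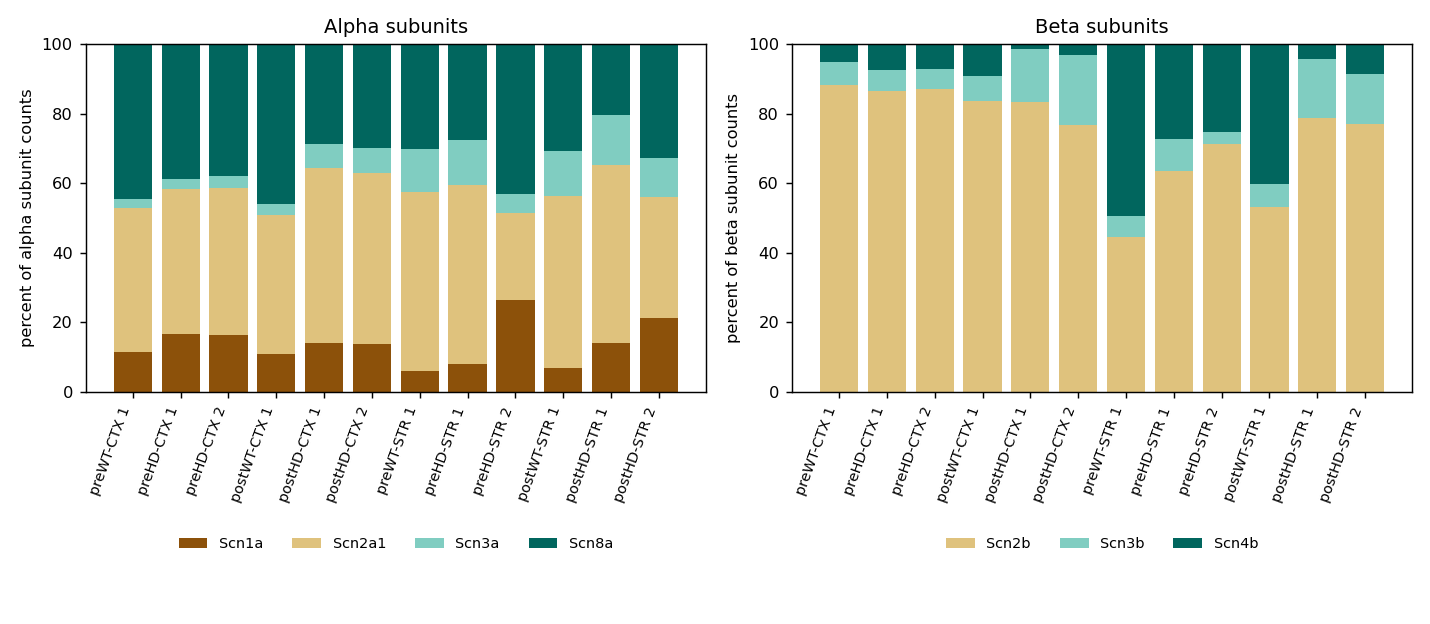
Share of each gene in the summed counts of the alpha subunit genes Scn1a, Scn2a1, Scn3a and Scn8a (left) and of the beta subunit genes Scn2b, Scn3b and Scn4b (right), in percent (y axis), for each of the 12 libraries (x axis). Scn4b shrinks from 49.5% and 40.1% in the WT striatum libraries to 4.45% and 8.71% in post-symptomatic HD striatum, and Scn3a widens from 2.52% and 3.04% in WT cortex to 6.97% and 7.16% in post-symptomatic HD cortex.

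Among the alpha subunits, with Scn2a1 (Nav1.2) as the fourth, Scn3a made up 2.52% and 3.04% in WT cortex, 3.13% and 3.40% in pre-symptomatic HD cortex, and 6.97% and 7.16% in post-symptomatic HD cortex. Scn8a made up 44.5% and 46.0% in WT cortex and 28.7% and 29.8% in post-symptomatic HD cortex. The total of the 4 alpha subunit genes in cortex was 1128 and 1090 CPM in WT mice and 1153 and 1063 CPM in post-symptomatic HD mice. Scn2a1 made up 41.4% and 39.9% in WT cortex and 50.2% and 49.1% in post-symptomatic HD cortex. Scn1a made up 11.6% and 11.1% in WT cortex and 14.2% and 13.9% in post-symptomatic HD cortex. The WT and post-symptomatic HD totals overlapped, while the shares of all 4 genes did not. How many of all genes would show such a pattern is not given here. The difference in shares was not tested. In pre-symptomatic HD cortex the total was 1443 and 1383 CPM.

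Scn4b was then set beside markers of striatal projection neurons, since it is itself enriched in them. In post-symptomatic HD striatum, the log2 ratio of 8 markers to the WT library of the same age lay between -3.25 and -1.57 in replicate 1 and between -3.32 and -1.59 in replicate 2. Scn4b was at -5.06 and -4.29, lower than each of the 8 in both libraries. In pre-symptomatic HD striatum replicate 1 the 8 markers lay between -0.28 and 0.66 while Scn4b was at -1.13. In replicate 2, the library that stood apart, the markers lay between -2.14 and -0.74, and 2 of them were lower than Scn4b at -2.04. Scn2b was at 0.24 and -0.40 before onset and at -1.32 and -1.55 after it. These are ratios to 1 WT library and were not tested. The genes were chosen because of the fall of Scn4b, which ranked 2 by fall in post-symptomatic HD against WT mice. Its place below the markers after onset thus follows in part from that choice and is a description only. The markers were lower alongside Scn4b, and the part of projection neuron content in its level was not tested.

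**Figure D4:**
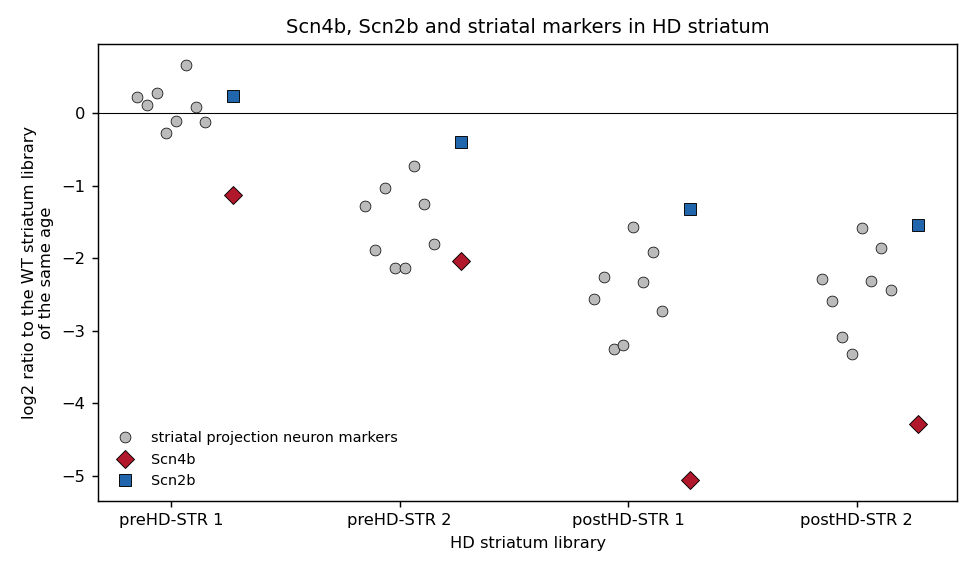
Log2 ratio to the WT striatum library of the same age (y axis) in the 4 HD striatum libraries (x axis) for 8 striatal projection neuron markers (grey), Scn4b (red diamonds) and Scn2b (blue squares). Scn4b lies below all 8 markers in 3 of the 4 libraries, at -1.13, -5.06 and -4.29, and within their range in pre-symptomatic replicate 2. Its post-symptomatic values belong to the comparisons by which the genes were chosen.

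The genes whose levels ran most like Scn4b over the 12 libraries were Ppp4r4, Smarcd3, Gpr83, Chst11 and Inf2. Pearson's r of log2(CPM + 1) with Scn4b was 0.986, 0.978, 0.972, 0.969 and 0.966, taken from 10779 genes with a mean of at least 5 CPM. Spearman's rho was 0.93, 0.94, 0.94, 0.90 and 0.95. The libraries share regions, ages and genotypes, so these values are a description with no test. Gpr83, a receptor gene, was at 93.2 and 105 CPM in WT striatum, 131 and 37.8 CPM in pre-symptomatic HD striatum, and 13.6 and 12.6 CPM in post-symptomatic HD striatum. Inf2, a formin gene, was at 366 and 407 CPM, 317 and 177 CPM, and 68.2 and 94.6 CPM in the same order. Among the other members, Scn2b was most like Scn4b (r = 0.83) and Scn1a least (r = -0.62).

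Of 8 further channel genes examined, 5 could be tested, and none was called after against before symptom onset or between HD and WT mice at either age. Over all genes tested, 6.45% were called after against before onset, and 7.36% and 2.1% in post- and pre-symptomatic HD against WT mice. Scn9a, the gene of Nav1.7, had log2 fold changes of 1.11 after onset (SE 0.39, edgeR adjusted p = 0.12) and 1.48 in post-symptomatic HD against WT mice (SE 0.49, edgeR adjusted p = 0.088). The latter was called without pre-symptomatic HD striatum replicate 2 (1.49, SE 0.45, edgeR adjusted p = 0.043). Scn2a1 was at -0.10 and -0.09 in these comparisons. Between regions in WT mice, Scn9a was higher in striatum (log2 fold change 2.17, SE 0.57, edgeR adjusted p = 0.030). Scn9a was higher in HD striatum as well (1.68, SE 0.39, edgeR adjusted p = 0.023).

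Partners of the channel were represented by 18 genes, such as those of scaffold, adhesion and fibroblast growth factor homologous proteins. Of these, 1 was called after symptom onset in HD mice, where 6.45% of 13944 genes were called. A count of 1 in 18 is near that share. The gene called was Nrcam, an adhesion molecule of nodes and axon initial segments, which fell by 0.64 (SE 0.12, edgeR adjusted p = 0.017). The median log2 fold change of the 18 was -0.33, against 0.0023 over all genes tested. None of the 18 was called between HD and WT mice at either age, where 7.36% (post-symptomatic) and 2.1% (pre-symptomatic) of 14706 genes were called. With pre-symptomatic HD striatum replicate 2 left out, Ank3 was called lower in post-symptomatic HD mice (-0.48, edgeR adjusted p = 0.036) and Fgf14 higher in pre-symptomatic HD mice (0.83, edgeR adjusted p = 0.038), and Nrcam and Fgf14 fell after onset by 0.64 and 0.85. Between regions in HD mice, 1 was higher in striatum and 5 were lower, where 10.9% of 13944 genes were called. Fgf11 was higher by 1.20 (SE 0.26), and Fam155a, Fgf12 and Fgf13 had log2 fold changes of -1.15, -0.91 and -0.81. In WT mice the same contrast had 1 higher, Fgf11 by 1.60, and 3 lower, Fam155a, Fgf12 and Nrcam, with -1.98, -1.11 and -0.76. It called 11.1% of 14706 genes in WT mice.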

How the data were processed

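Striatum and cortex of HD and WT mice at 2 ages were profiled with 3′ libraries (Lexogen QuantSeq kit, per the labels) in 12 libraries. The authors deposited raw counts as whole numbers, in 1 table for each library with genes by symbol, and their processing notes name Bowtie2, bedtools and mm10. Versions, annotation and counting rule are not given in the sources used here. Rows that repeated a symbol (44) were handled as separate rows and none was a member.

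Groups were taken from the labels. Counts were normalized by TMM, filtered with filterByExpr (minimum count 10) and tested with the robust quasi-likelihood test of edgeR 4.0.16 in R 4.3.3, with Benjamini-Hochberg adjustment over all genes tested at a threshold of 0.05. Stage and region in HD mice were fitted as terms over 8 HD libraries. Single regions had a mean for each HD group. HD and WT mice were compared over 12 libraries with region as a term, and regions by genotype likewise. SE is the absolute log2 fold change over the square root of F. Tests assume that libraries are independent, and where striatum and cortex came from 1 mouse, p-values measure the spread between libraries only. Alternatives were upper-quartile normalization, no filter, DESeq2 1.42.0, the replicate number as a block, voom (limma 3.58.1) with libraries of 1 genotype, age and replicate number as a random block (an assumed pairing that the labels do not state), and leaving out each HD library. Leaving out both HD striatum libraries numbered 2 was chosen after seeing the data. A pseudocount of 1 was used only for likeness to Scn4b.

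The members and gene lists were chosen with earlier results of these data known. All 6 members are named. Of the other channel genes and partners, up to 3 called rises and 3 called falls per comparison are named at a mean of at least 5 CPM, and marker lists are given by sums and counts. A gene of the wider family is not reported here. Scn2a1, Scn9a, Ank3, Fgf14, Drd2, Ttr, Xist, Ddx3y and Rn45s and the neuronal and interneuron markers were named with their values known. On simulated counts for HD mice after against before onset, with 200 of 13714 genes changed by 1.5 on the log2 scale, edgeR recovered 156 with 4.88% false calls. It recovered 103 in HD striatum after onset, 126 in post-symptomatic HD against WT mice and 125 between WT regions (2.83 to 3.1% false calls). Over these comparisons, false calls were 5.33 to 14.5% with DESeq2 and 1.77 to 11.2% with voom. The simulated libraries were independent with 1 trend of spread, so a pair as far apart as pre-symptomatic HD striatum was not modelled. Intervals cover sampling error only, since the 3′ reads carried no molecular identifiers. No replicate pair agreed within sampling noise (chi-square over degrees of freedom 7.06 to 75.6).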

Additional observations from a re-analysis of the deposited data

Results flagged for a closer look

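In the following cases all HD libraries lay on one side of WT in one region or age and all on the other side in the other. Each rests on 1 WT library per group, and the difference itself was not tested at a single age or in a single region. With so few libraries, such a pattern can arise without a true difference. The share of all genes that show it is not given here, so the cases are not shown to be particular to these members. Values are differences of log2 ratios of mean CPM to WT.

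For Scn3a after symptom onset, striatum less cortex was -1.53, with both HD striatum libraries below WT and both HD cortex libraries above it. For Scn3b after onset it was -1.01, in the same directions. Some of these libraries were close to WT. The log2 ratios of HD replicates 1 and 2 to WT were -0.056 and -0.57 for Scn3a in striatum. They were 0.060 and 0.39 for Scn3b in cortex. For Scn4b before onset, striatum less cortex was -1.92, with both HD striatum libraries below WT and both HD cortex libraries above it. One of these striatum libraries is pre-symptomatic replicate 2, which stood apart and was low in striatal projection neuron markers. Over both ages, the test of the regional difference of HD less WT gave edgeR adjusted p = 0.44 for Scn3a, 0.84 for Scn3b and 0.45 for Scn4b.

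Between ages, Scn8a was above WT before onset and below it after onset in all HD libraries of both regions, a difference of -0.84 in striatum and -0.74 in cortex. Its log2 ratios to WT in striatum before onset were 0.071 in replicate 1 and 0.56 in replicate 2, the library that stood apart. In cortex, Scn3b was below WT before onset and above it after onset (0.52), and Scn4b was above WT before onset and below it after onset (-3.49). Over both regions, the test of the change with age in HD less WT gave edgeR adjusted p = 0.29 for Scn8a and 0.98 for Scn3b. The Scn4b value after onset belongs to the comparison by which the genes were chosen.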

How the results depend on the processing

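Limits of the data were 2 HD libraries per group, 1 WT library per group, a pre-symptomatic HD striatum pair that differed in cell type markers, and p-values that cannot separate mice from regions of the same mouse. Scaling moved the median of all genes by less than 0.1 (log2) in every comparison. The replicate number coincided with sex markers in HD mice, and differences between replicates 1 and 2 correlated between regions across genes (r = 0.27 after and 0.14 before onset). The labels do not say that numbers mark a mouse, so the fits reported have no block. Of 840 member values under alternatives, 745 kept their direction and their side of the threshold (or stayed within 1 SD), 60 came to pass it, 7 ceased to pass it, 2 moved and 26 changed sign. The cause of these changes was not tested.

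Genes called, in the order HD after against before onset, HD striatum, HD cortex, post-symptomatic and pre-symptomatic HD against WT, change with age, and HD striatum against cortex, were 900, 23, 85, 1082, 309, 17 and 1518. With DESeq2 they were 1680, 447, 558, 1813, 674, 231 and 2433, with 17 for the change of striatum less cortex and 64 for the regional difference of HD less WT. Without both HD striatum libraries numbered 2 they were 1913, 1346, 2279, 2057, 611, 318 and 2678, with 3208 for WT striatum against cortex (1627 as reported) and 368 for striatum less cortex. Without a filter, 163 were called in HD striatum, 251 in HD cortex, 30 for the change with age and 1 for striatum less cortex. Upper-quartile normalization called 45 in HD cortex and 5 for the change with age, voom called 153 in HD cortex, and the replicate block called 36 in HD striatum.

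The member counts below come without the share of all genes called under each alternative. They describe dependence on the processing and are not results about the members. Of the 5 members other than Scn4b, none was called in single regions, and 1 was called in each with DESeq2, without a filter and with the replicate block (Scn2b in each case). Without both libraries numbered 2, 3 were called in striatum and 5 in cortex. In post-symptomatic HD against WT mice 1 was called, and 2 with DESeq2, the replicate block, voom or without both libraries numbered 2. Of all 6, DESeq2 called 1 in pre-symptomatic HD against WT mice and 2 for the change with age. Any call of Scn4b for the change with age is a description only, since its values after onset led to the choice of the genes. Without both libraries numbered 2, 2 were called for the change with age, 3 for striatum less cortex and 5 for HD striatum against cortex.

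Leaving out 1 HD library gave 211 to 1518 genes and 1 to 5 members after against before onset, 0 to 1083 genes and 0 to 5 members in HD striatum, 0 to 1202 genes and 0 to 4 members in HD cortex, and 0 to 168 genes and 0 to 2 members for striatum less cortex. It gave 663 to 2173 genes and 1 to 2 members between HD regions, 628 to 1834 genes and 1 to 2 members in post-symptomatic and 101 to 444 genes and 0 to 1 member in pre-symptomatic HD against WT mice. It gave 4 to 211 genes and 0 to 1 member for the change with age, 1233 to 2581 genes and 3 to 5 members between WT regions, and 0 to 576 genes and 0 to 3 members for the regional difference of HD less WT.

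Sign changes were as follows. In HD striatum after onset, Scn1a was at 0.51 and Scn3a at -0.13 without both libraries numbered 2, and Scn3b was at 0.13 with voom. Leaving out 1 library moved Scn1a between -0.79 and 0.78, Scn3a between -0.36 and 1.02 and Scn3b between -1.04 and 1.24. Over both regions Scn3b ranged from -0.055 to 0.89. For striatum less cortex, the ranges were -0.20 to 1.34 for Scn1a, -1.13 to 0.26 for Scn3a, -0.21 to 0.35 for Scn8a, -0.53 to 0.13 for Scn2b and -1.73 to 0.57 for Scn3b. Against WT, post-symptomatic Scn3b was at 0.061 with the block and 0.014 without both libraries numbered 2, and pre-symptomatic Scn2b at 0.031 and 0.011. Leaving out 1 library moved pre-symptomatic Scn3a between -0.15 and 0.38 and Scn2b between -0.24 and 0.0036, the change with age of Scn3b between -0.16 and 0.67, and Scn3b between HD regions from -0.21 to 0.70. The regional difference of HD less WT was -0.11 for Scn8a and 0.10 for Scn2b without both.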
